A study of Mus musculus with 31 samples.

Results

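Large hyperplasias of K5ΔNβcat mammary glands were compared with control mammary tissue over all genes measured on the array. In K5ΔNβcat mice a transgene under the keratin 5 promoter produces β-catenin that lacks its N-terminal end, which makes the protein stable, in the basal cells of the mammary epithelium and of other epithelia that express keratin 5, the skin among them. The 5 arrays labelled as large hyperplasia and the 4 arrays labelled as control mice without a sort were taken by their labels, together 9 of the 31 arrays of the series. The 5 small hyperplasias and 11 tumors of the same genotype entered where the large hyperplasias differ from them. The labels give the strain C57BL6 for every sample, and the study's methods describe a mixed background with the 129SV strain. Age and parity are not in the labels, and neither is whether the samples came from separate animals, so that each p-value rests on the spread among the arrays of a group, which may in part be technical. Whole pieces of tissue were used, so that fewer cells of a type and less RNA per cell cannot be told apart.

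Wnt ligands bind Frizzled receptors and keep β-catenin from being degraded. β-catenin then enters the nucleus, joins TCF and LEF factors and turns on target genes, several of which encode inhibitors of the same pathway. The same signal starts the placodes from which mammary glands, hairs and teeth develop, and in the adult skin it drives the growth of the hair follicle. The mammary duct has an inner layer of luminal cells and an outer layer of basal cells, which contract during milk ejection, and it lies in a pad of fat.

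One array was hybridised per sample, after RNA labelling by the one-cycle protocol of Affymetrix. The values are linear MAS5 signals that the authors scaled to a common mean, and signals are listed here in the order of the replicate numbers. A signal under 30 counted as background, following the study's methods. Differences are on the scale of log2 of the signal plus 16, which understates the change of dim genes, and are given ± SE of limma. Where every array of a group was under 30, the fold is a lower bound, which sets the other group's mean of log2 signals against 30. Median signals of the arrays were 29.8 to 32.9 in large hyperplasias and 27.1 to 30.1 in control tissue. Spearman correlations were 0.939 to 0.966 among large hyperplasias, 0.903 to 0.923 among control samples and 0.871 to 0.907 between both. The epithelial markers of the tissue label were present in control samples, in which the basal keratin Krt14 had signals of 285, 324, 350.5 and 363 and the luminal keratin Krt18 of 1323, 1877, 1689 and 2318. Control replicate 1 stood apart from the other control samples in several lists, with a mean log2 signal over the macrophage genes 0.70 above the control mean, and the counts without it are given where they move.

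In the large hyperplasias 6155 of 24001 probe sets were higher than in control tissue (25.6%) and 4822 were lower (20.1%). Taken by gene, with each gene represented by its brightest probe set, 3156 of 11763 genes were higher (26.8%), 2694 were lower (22.9%), and both groups did not overlap in 41.7%. These shares are the background for every list below, whose members are given as measured on the array, as passing the filter on low signals, and as called at an adjusted p under 0.05. Without control replicate 1, 5440 probe sets were higher and 4422 lower. Centring the arrays on their medians turned the balance, to 4743 higher and 6119 lower, so that lists with small differences depend on the scaling. Against small hyperplasias, 4.10% of 11594 genes were higher in large hyperplasias and 5.55% were lower. Small hyperplasias had 19.3% of 11594 genes above control tissue and 15.3% below it, and in tumors 22.7% of 11747 genes were higher than in large hyperplasias and 31.9% lower. The last comparison also turned with centring, from 4979 probe sets higher and 7821 lower to 6664 and 5724, and that with small hyperplasias went from 1175 and 1084 to 879 and 1435.

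**Figure D1:**
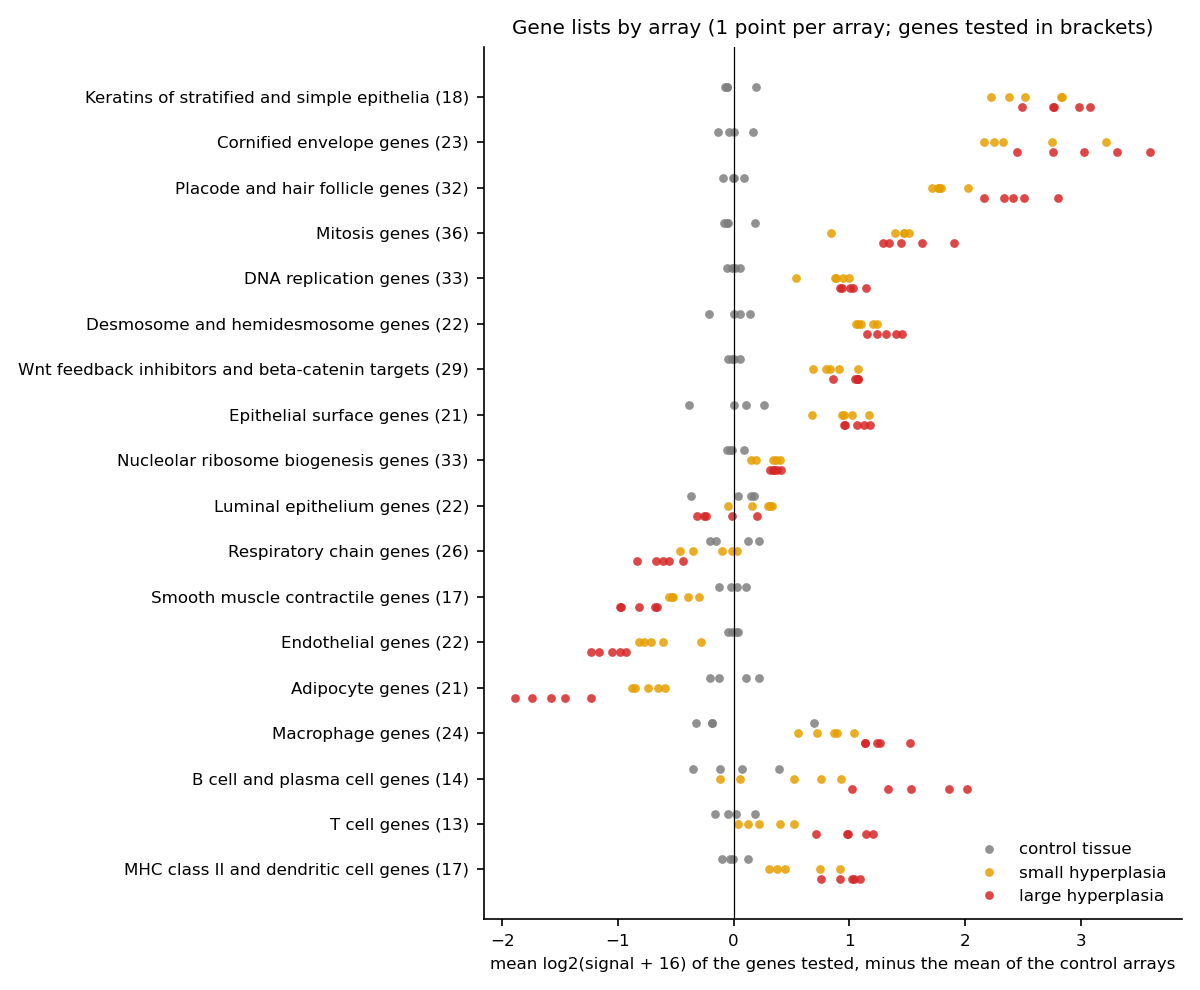
Mean log2(signal + 16) over the tested genes of 18 lists, minus the mean of the control arrays, with 1 point per array for control tissue, small hyperplasias and large hyperplasias. Large hyperplasias and control tissue do not overlap in 17 of these lists and overlap for the luminal epithelium genes. The 18 lists are a selection. Among lists not shown, the groups overlap for the milk protein, Notch, Igf and imprinted, interferon response, nerve and strain lists. Taken gene by gene, the groups did not overlap in 41.7% of all genes.

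A signal from the major histocompatibility complex, named H2 in the mouse, set the large hyperplasias apart from the other groups as a whole. Among 45037 probe sets, 6 had a signal at least 3-fold higher in every large hyperplasia than in every control sample and every small hyperplasia, with signals under 30 set to 30, and 0 were lower by the same rule. This rule was chosen after the values were seen. The 6 were 3 probe sets of H2-D1, a class I gene whose product presents peptides on most cells, 2 of H2-Ea, the α chain of the class II molecule I-E, and 1 shared by several class I genes. The brighter H2-Ea probe set had signals of 2299, 2045, 2168, 2541 and 2306 in the large hyperplasias and 44.9, 2.86, 0.831 and 1.06 in control tissue. In the small hyperplasias it had signals of 1.01, 0.825, 6.21, 1.59 and 4.68. All 5 large hyperplasias lay far above every other array of both groups. Control replicate 1 was above background in this probe set and, at 59.4 and 31.0, in 2 of the 3 of H2-D1, and of the 11 tumors replicate 4 was high, at 1382, with the next at 6.89. H2-Ea is known not to be transcribed in strains of the b haplotype, C57BL6 and 129 among them, and class I probe sets can depend on the allele. Other probe sets of the same genes did not share the pattern. The brightest one of H2-D1 ranged from 3950 to 7072 in the large hyperplasias and from 5662 to 7444 in control tissue and was called lower (log2 difference -0.45 ± 0.15, adjusted p = 0.0183), although the mean over the probe sets of the gene was higher (log2 difference 2.55). It was not called without control replicate 1 or without large hyperplasia replicate 2. Genetic background and lesion cannot be told apart for this comparison. The same holds for large hyperplasias against small ones, and against tumors, of which only replicate 4 was high. Small hyperplasias, which lack the H2 signal, are set beside the large ones for the larger lists, with their own difference from control tissue. Of 9 transcripts listed as varying between mouse strains, 2 were higher, Gbp2b and Ide, and 1 was lower, Nnt, whose transcript is truncated in one substrain of C57BL6 (log2 differences 0.72 for Ide and -1.05 for Nnt).

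**Figure D2:**
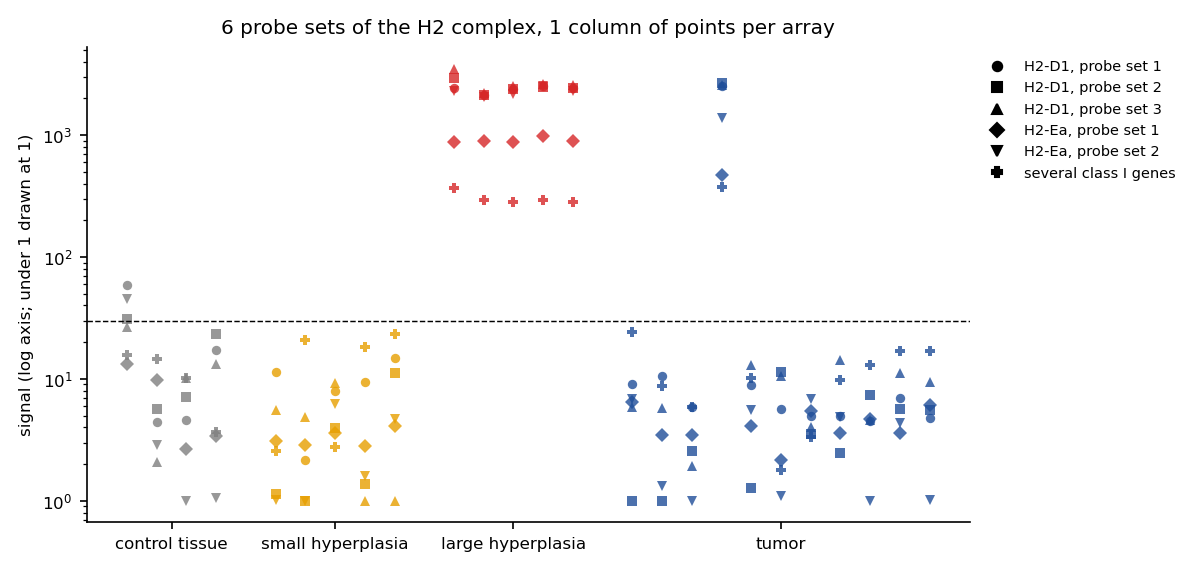
Signals of the 6 probe sets of the H2 complex on a logarithmic axis, 1 column of points per array, for control tissue, small hyperplasias, large hyperplasias and tumors, with the background limit of 30 as a dashed line. The 5 large hyperplasias and tumor replicate 4 are high in all 6 probe sets.

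Most genes that the Wnt pathway itself controls were higher in the large hyperplasias. Of 33 feedback inhibitors and β-catenin targets on the array, 29 passed the filter, 18 were higher and 3 lower, with a median log2 difference of 0.95 against 0.04 over all genes. Small hyperplasias had 17 of 28 above control tissue and 1 below, and between large and small hyperplasias 2 were higher and 2 lower. The secreted inhibitor Wif1 had signals of 488, 776, 668, 534 and 638 in the large hyperplasias and 29.8, 19.6, 23.5 and 20.4 in control tissue. Its level was at least 20.4-fold higher with an adjusted p of 2.47e-07. Notum, an enzyme that inactivates Wnt ligands, had signals of 202, 168, 191, 152 and 240.2 in the large hyperplasias and 29.3, 29.5, 9.06 and 25.3 in control tissue, and was at least 6.28-fold higher with an adjusted p of 2.26e-07. In both genes every large hyperplasia lay above every control sample. The cytoplasmic inhibitor Axin2, the most general reporter of the pathway, had signals of 227, 178, 184, 175 and 228 in the large hyperplasias and 61.9, 96.5, 90.7 and 142 in control tissue (log2 difference 0.95 ± 0.22, adjusted p = 8.92e-04). The receptor Lgr5, which amplifies Wnt signals in stem cells, had signals of 649, 633, 693, 419 and 554 in the large hyperplasias and 117, 177, 181 and 176 in control tissue (log2 difference 1.76 ± 0.41, adjusted p = 0.00115). Lef1, the nuclear partner of β-catenin, was at least 2.69-fold higher with an adjusted p of 3.12e-05.

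Sp5, a transcription factor gene that is a direct target of β-catenin in other tissues, had signals of 83.0, 56.6, 70.5, 42.7 and 56.5 in the large hyperplasias and 7.11, 0.589, 3.03 and 1.26 in control tissue, and was at least 2.01-fold higher with an adjusted p of 1.08e-06. The letters CTTTGAT, which TCF and LEF factors recognise, were searched on both strands from 250 bases before to 50 bases after the start of each gene in the RefSeq promoters of GRCm38.p6. Of the 11 genes of the list that were higher and had a promoter in that table, Sp5 alone held them, against 3.72% of 27025 promoters. The 150 bases before its start are shown because the Sp5 promoter carries this match, which is in capitals.
Sp5 (chr2:70474773-70474922, plus strand): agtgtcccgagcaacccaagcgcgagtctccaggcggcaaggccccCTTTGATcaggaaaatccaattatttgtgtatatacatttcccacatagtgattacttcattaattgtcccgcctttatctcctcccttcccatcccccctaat

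Ligands and receptors of the pathway did not move alike. Of 9 Wnt ligands that passed the filter, 4 were higher and 0 lower. Wnt10a had signals of 124, 119, 95.1, 73.9 and 76.3 in the large hyperplasias and 32.9, 3.07, 20.8 and 17.0 in control tissue (log2 difference 1.77 ± 0.22, adjusted p = 3.68e-07), and Wnt6 of 139, 123, 116, 128 and 114 in the large hyperplasias and 40.7, 33.9, 24.5 and 40.8 in control tissue (log2 difference 1.47 ± 0.22, adjusted p = 6.64e-06). Both ligands are produced by the placode and the hair matrix. Wnt5a, a ligand that acts mostly without β-catenin, had a log2 difference of 1.25, which was not called when its 4 probe sets were averaged. Among 9 Frizzled receptors 6 were higher and 1 was lower. Fzd2 had signals of 385, 287, 248, 233 and 233 in the large hyperplasias and 67.3, 60.6, 67.6 and 99.0 in control tissue (log2 difference 1.71 ± 0.20, adjusted p = 1.58e-07). Fzd4, which binds norrin in vessels and is abundant in fat, was among the 15 genes that fell most, with signals of 650.2, 398, 403, 507 and 412 in the large hyperplasias and 2935, 2852, 2904 and 3859.6 in control tissue (log2 difference -2.70 ± 0.21, adjusted p = 2.37e-10). The 3 members of the Wnt list that were lower were Sfrp5, an inhibitor secreted by fat cells (log2 difference -2.39 ± 0.55, adjusted p = 8.74e-04), the mesenchymal factor Twist1 (log2 difference -0.69 ± 0.18, adjusted p = 0.00246) and Tcf7l1, a repressor of the pathway (log2 difference -0.53 ± 0.20, adjusted p = 0.0318). Tcf7l1 was not called without control replicate 2, 3 or 4 or without large hyperplasia replicate 1. Ctnnb1, the gene of β-catenin, had signals of 4007, 3519.9, 3982, 3573 and 3535 in the large hyperplasias and 2391, 2449, 3054 and 2579 in control tissue (log2 difference 0.51 ± 0.09, adjusted p = 6.00e-05), and a probe set cannot part the transgene from the gene itself where it lies in the shared sequence. The other, dimmer probe sets of Ctnnb1 rose more, with log2 differences of 1.24 (adjusted p = 2.99e-07) and 1.49 (adjusted p = 1.11e-09). Ccnd1, often listed as a target, had signals of 1030.1, 1009, 1009, 1066 and 1308 in the large hyperplasias and 798, 1256, 917 and 1234 in control tissue, which overlapped, and was not called by any of its 3 probe sets (adjusted p = 0.858).

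Genes of placodes and of the hair follicle rose widely. Of 37 on the array 32 passed the filter, and 29 of them were higher and 0 lower, with a median log2 difference of 1.99, or 1.82 with genes at background in control tissue set to their bound. The genes at a bound were 17, which passed the filter through the large hyperplasias alone and could hardly be called lower. The ligand Shh, which the placode secretes, had signals of 383, 457, 335, 332 and 313 in the large hyperplasias and 51.8, 21.5, 22.5 and 26.9 in control tissue (log2 difference 3.06 ± 0.38, adjusted p = 4.86e-07). Its receptor and target Ptch1 had signals of 2235, 2182, 1994, 1514 and 1755 in the large hyperplasias and 293, 229.6, 276 and 279.7 in control tissue (log2 difference 2.76 ± 0.43, adjusted p = 1.31e-05). Gli1, the transcription factor that reads the pathway out, was at least 4.89-fold higher with an adjusted p of 1.37e-07. The 3 Hedgehog genes thus lay above every control sample in every large hyperplasia. Of the Edar pathway, which sets the size of placodes, the adaptor Edaradd was at least 3.36-fold higher with an adjusted p of 1.23e-07. Lhx2, a factor of follicle stem cells, was at least 7.33-fold higher with an adjusted p of 4.19e-06, Sox9, needed for the same cells, had a log2 difference of 1.22, and Sox21, of the hair cuticle, one of 2.07. Foxn1, the gene lost in nude mice, was at least 1.43-fold higher with an adjusted p of 5.48e-09, and Vdr, the vitamin D receptor that hair cycling needs, rose to 689.6, 577, 467, 288 and 324 from 79.9, 157, 136 and 121 (log2 difference 1.76 ± 0.26, adjusted p = 6.90e-06). Bmp4, Trps1 and Msx1 were not called, with log2 differences of 0.70, 0.27 and 0.17.

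Keratins of the inner root sheath and of the hair shaft were among the largest rises of the array. Krt25, a keratin of the inner root sheath, had signals of 2755, 3473, 1897, 1835 and 1284 in the large hyperplasias and 41.6, 8.62, 7.13 and 0.355 in control tissue (log2 difference 6.30 ± 0.76, adjusted p = 3.06e-07). Its partner Krt71 had signals of 1679, 2303, 1192, 1166 and 855 in the large hyperplasias and 16.1, 19.4, 15.5 and 7.37 in control tissue and was at least 45.2-fold higher with an adjusted p of 5.02e-06. Trichohyalin, Tchh, which hardens the inner root sheath, was at least 35.1-fold higher with an adjusted p of 2.99e-09. The hair keratins Krt33a, Krt34, Krt35, Krt31 and Krt86 were at least 13.1, 12.9, 9.28, 10.2 and 10.9-fold higher, and Krt36 was not called (log2 difference 1.23, adjusted p = 0.124). Of the keratin-associated proteins, the Krtap genes that form the matrix of the hair shaft, 38 were on the array and 30 passed the filter, most of them through the lesions alone. Of these 30, 29 were higher and 0 lower, and 25 were at background in every control sample. Krtap8-1 had signals of 1751, 2299, 1426, 1953 and 675 in the large hyperplasias and 13.1, 18.8, 0.628 and 3.51 in control tissue and was at least 49.96-fold higher with an adjusted p of 2.86e-05. Krtap13-1 had signals of 627, 838, 762, 963 and 326 in the large hyperplasias and 23.8, 7.69, 3.75 and 5.65 in control tissue and was at least 22.0-fold higher with an adjusted p of 8.31e-05. Hoxc13, the Hox gene that controls hair keratins, rose to 58.4, 77.6, 45.0, 38.6 and 30.5 from 1.51, 0.725, 1.61 and 1.42, and was at least 1.58-fold higher with an adjusted p of 3.62e-05. It was the 1 Hox gene of 16 that passed the filter to be higher, while 9 others were lower, for example Hoxc8 (-1.23) and Hoxa9 (-1.11).

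**Figure D3:**
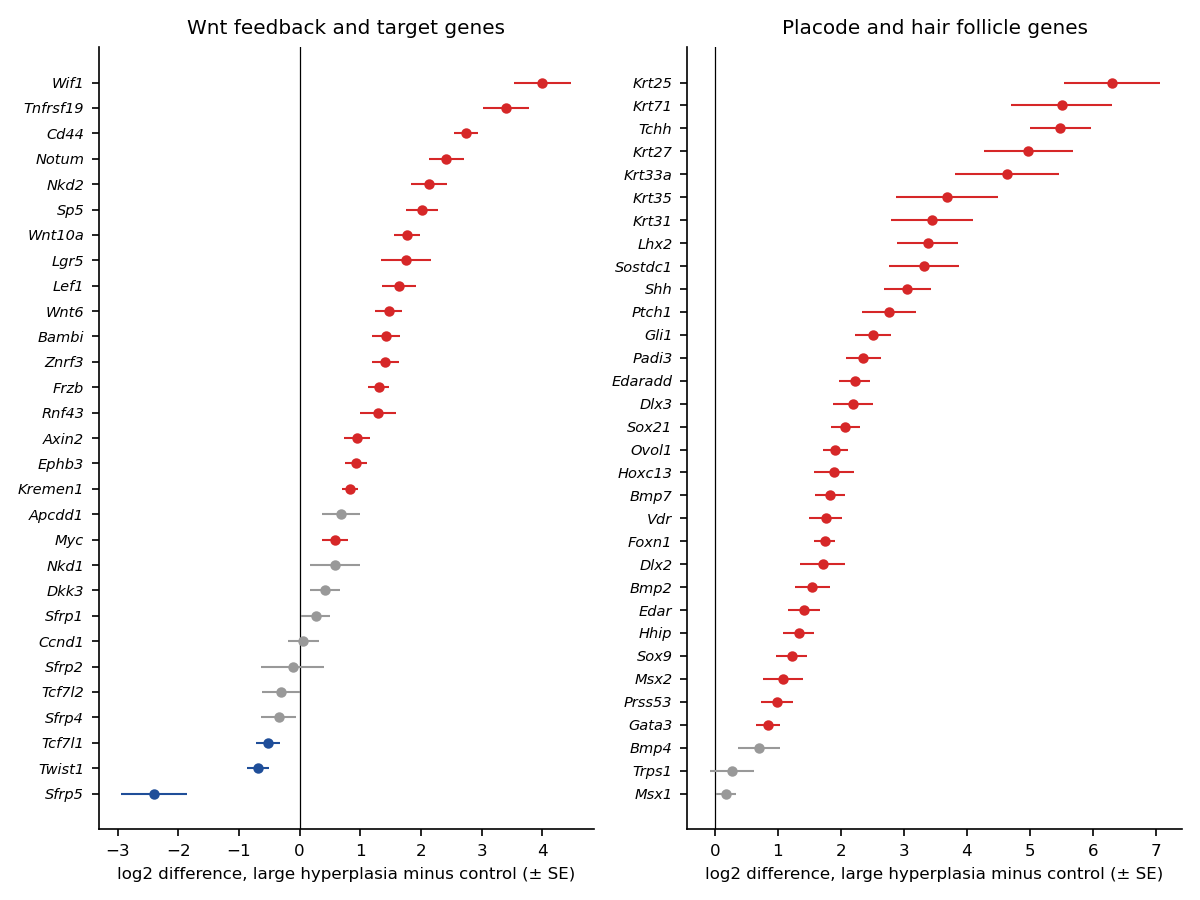
Log2 differences of large hyperplasias minus control tissue, ± SE, for the 29 Wnt feedback and target genes and the 32 placode and hair follicle genes that passed the filter, in red where higher, in blue where lower and in grey where not called. In the follicle list 29 genes are higher and 0 lower, and in the Wnt list 18 are higher and 3 lower.

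Some of these follicle genes also differed between large hyperplasias and the other lesions. Against small hyperplasias 8 of 32 were higher and 0 lower, in a comparison in which 4.10% of all genes were higher. Shh was among them (log2 difference 1.42 ± 0.36, adjusted p = 0.0142), as were Hhip, a Hedgehog inhibitor and target (1.02 ± 0.23, adjusted p = 0.00752), Gli1 (0.90 ± 0.27, adjusted p = 0.0363), Vdr (0.89 ± 0.25, adjusted p = 0.0249) and Sox9 (0.81 ± 0.24, adjusted p = 0.0316). For Shh the small hyperplasias had signals of 137, 172, 88.6, 151 and 94.9. Against tumors, 22 of 32 were higher in the large hyperplasias and 2 lower, where 31.9% of all genes were lower in tumors. All 30 Krtap genes that had passed the filter were lower in tumors, in which Krtap8-1 ranged from 0.560 to 1177 (median 39.4) and Krt25 from 39.5 to 1922 (median 300.0). Members of both groups had passed the filter of large hyperplasias against control tissue. Of the Krtap genes 25, and of the 32 follicle genes 17, did so through the large hyperplasias alone. Such a choice favours higher values in large hyperplasias than in tumors or in small hyperplasias. The counts against tumors are therefore no test of a fall, and those against small hyperplasias no test of a rise. The comparisons share the large hyperplasias and their H2 signal, and the small ones already had 23 of 30 of the follicle genes above control tissue.

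**Figure D4:**
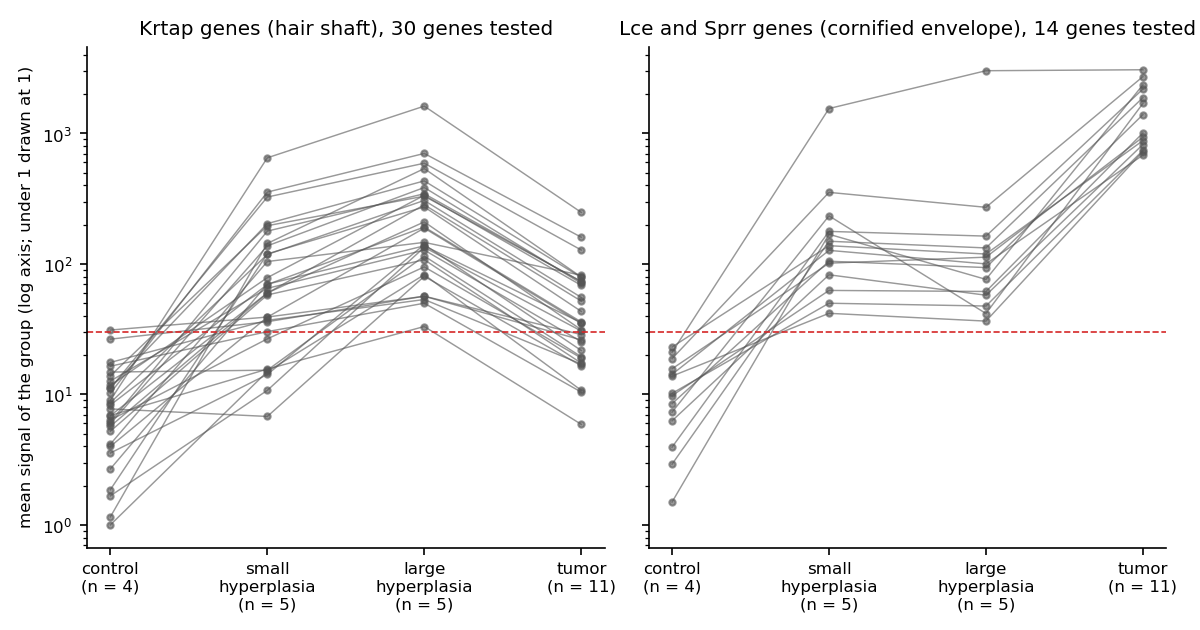
Mean signals per group on a logarithmic axis for 30 Krtap genes (left) and for 14 Lce and Sprr genes of the cornified envelope (right), 1 line per gene, with the background limit of 30 dashed. All 30 Krtap genes were lower in tumors than in large hyperplasias, while 9 of 9 Lce genes and 4 of 5 Sprr genes were higher in tumors. The genes shown are those that passed the filter of large hyperplasias against control tissue.

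Genes of the cornified envelope, the hardened shell of the outermost skin cells, formed another group. Of 27 on the array 23 passed the filter, and 20 were higher and 0 lower, with a median log2 difference of 2.68 (2.29 with the bounds). In this list 14 genes were at a bound. They passed the filter through the large hyperplasias alone and could hardly be called lower. Cst6, a protease inhibitor of the skin, was the gene that rose most on the array, with signals of 6498, 5310.1, 5095, 2080.4 and 3182 in the large hyperplasias and 49.6, 7.26, 4.43 and 11.5 in control tissue (log2 difference 7.08 ± 0.34, adjusted p = 3.53e-14). The envelope precursor Sprr1a had signals of 4095, 3607, 3121, 2092 and 2223 in the large hyperplasias and 47.4, 16.02, 7.91 and 12.8 in control tissue (log2 difference 6.42 ± 0.25, adjusted p = 8.84e-16). Crct1 was at least 51.8-fold higher with an adjusted p of 7.24e-17, Prr9 had a log2 difference of 5.98, and the calmodulin of differentiating keratinocytes, Calm4, was at least 42.6-fold higher with an adjusted p of 3.00e-12. Klk7, a protease that sheds cornified cells, had signals of 2237, 2402, 1755, 1023 and 1203 in the large hyperplasias and 39.8, 5.13, 9.60 and 10.6 in control tissue (log2 difference 5.78 ± 0.26, adjusted p = 2.41e-14), and 7 of 8 kallikrein genes that passed the filter were higher. The 1 that was lower was Klk1, a glandular kallikrein (log2 difference -0.49 ± 0.15, adjusted p = 0.00968). Flg, the gene of filaggrin, was at least 1.65-fold higher with an adjusted p of 0.0116. Lor, the gene of loricrin, was not called and had signals of 58.4, 25.05, 28.4, 39.2 and 26.7 in the large hyperplasias and 24.5, 51.9, 42.1 and 36.0 in control tissue, and the epidermal keratin Krt2 was at background, with means of 3.29 ± 2.11 (SD, n = 5) in the lesions and 2.11 ± 1.63 (SD, n = 4) in the controls. Small hyperplasias had 20 of 22 above control tissue, and against them 9 of the 23 were higher, for example Crct1 (log2 difference 1.33 ± 0.20, adjusted p = 4.41e-04). Over all genes 4.10% were higher in that comparison. The 23 had passed the filter of large hyperplasias against control tissue, which favours such calls, so that this count is no test of a rise. Tumors exceeded large hyperplasias in 20 of 23, where 22.7% of all genes were higher in tumors, and Lor was higher there too (log2 difference 4.10, adjusted p = 5.22e-08).

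Keratins and cell junctions moved with these groups. Of 18 keratins of stratified and simple epithelia that passed the filter, 14 were higher and 0 lower, and the 4 that were not called were those of simple epithelia, Krt7, Krt8, Krt18 and Krt19. Small hyperplasias also had 14 of 18 above control tissue, and 4 were higher in large than in small hyperplasias. The repair keratin Krt6a had signals of 3116, 2863, 2164, 1540.1 and 1906 in the large hyperplasias and 59.0, 1.48, 2.24 and 18.7 in control tissue (log2 difference 6.23 ± 0.29, adjusted p = 2.56e-14), Krt15, of follicle stem cells, of 2825, 2231, 2087, 1215 and 1905 in the large hyperplasias and 45.9, 28.4, 23.6 and 1.07 in control tissue (log2 difference 5.76 ± 0.58, adjusted p = 2.33e-08), and Krt79, of the follicle's upper duct, of 3697, 3405, 3025, 1873 and 2242 in the large hyperplasias and 82.1, 36.0, 51.0 and 33.8 in control tissue (log2 difference 5.43 ± 0.50, adjusted p = 5.86e-09). Krt18 had signals of 838, 764, 913, 1205 and 1665 in the large hyperplasias and 1323, 1877, 1689 and 2318 in control tissue, which overlapped (adjusted p = 0.0578). Krt18 was lower and called with the arrays centred, without tumors in the fit, and without control replicate 1 or large hyperplasia replicate 5. Of 22 genes of desmosomes and hemidesmosomes 16 were higher and 3 lower, and in small hyperplasias 15 were higher than in control tissue and 2 lower. Dsc3, a cadherin of stratified epithelia, was at least 21.9-fold higher with an adjusted p of 2.00e-12, Dsc1 at least 13.2-fold higher with an adjusted p of 7.58e-10, and Dsp, which ties desmosomes to keratins, had signals of 2530.4, 2919.7, 2314, 2122 and 2358 in the large hyperplasias and 269.7, 433, 472 and 353 in control tissue (log2 difference 2.65 ± 0.13, adjusted p = 5.95e-14). The 3 lower ones were Pkp2, the plakophilin of heart and simple epithelia (log2 difference -2.004 ± 0.22, adjusted p = 7.54e-08), the tetraspanin Cd151 (log2 difference -0.86 ± 0.12, adjusted p = 3.15e-06) and Dst. Of the 4 probe sets of Dst, 2 were higher and 2 lower, so that this gene has no single direction.

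Of 21 genes of epithelial cells in general, 16 were higher and 0 lower. Among the genes named by the study, Trp63, the factor that keeps basal cells basal, had signals of 677, 744, 568, 459 and 525 in the large hyperplasias and 71.8, 156, 159 and 118 in control tissue (log2 difference 2.13 ± 0.22, adjusted p = 2.32e-08), and its relative Trp73 differed in the same direction, at least 1.24-fold higher with an adjusted p of 2.91e-04. The P-cadherin gene Cdh3 had signals of 85.7, 78.3, 49.0, 60.9 and 67.0 in the large hyperplasias and 25.7, 30.5, 39.8 and 30.2 in control tissue (log2 difference 0.81 ± 0.23, adjusted p = 0.00516). Efnb2, Cdk4 and Erbb2 had log2 differences of 2.14, 0.85 and 0.71 and were called higher. The oestrogen receptor gene Esr1 had signals of 182, 197, 210.2, 227 and 275 in the large hyperplasias and 849.8, 661, 693 and 804 in control tissue (log2 difference -1.72 ± 0.25, adjusted p = 5.98e-06). Foxa1, which opens chromatin for it, had signals of 215, 278, 239, 390.2 and 493 in the large hyperplasias and 719.5, 762, 642 and 1103 in control tissue (log2 difference -1.31 ± 0.47, adjusted p = 0.0241). Foxa1 was not called without control replicate 4 or without large hyperplasia replicate 1 or 3. The progesterone receptor gene Pgr was not called, with signals of 164, 122, 190.3, 168 and 141 in the large hyperplasias and 224, 381, 168 and 108 in control tissue (adjusted p = 0.631). Over the 22 luminal genes that passed the filter, 5 were higher and 2 lower, which is below the shares over all genes. Among the higher ones Ly6d had signals of 2261, 2321, 1955, 1174 and 1597 in the large hyperplasias and 255, 331, 233 and 633 in control tissue (log2 difference 2.38 ± 0.23, adjusted p = 8.74e-09). The others were Gata3, a factor of the luminal lineage, Ehf, Aldh1a3 and Epcam (log2 differences 0.84, 0.82, 0.69 and 0.64). In the list 3 were higher without control replicate 1 or without large hyperplasia replicate 1, and 2 by the methods' t-test. None of 10 milk protein genes was called, and the casein gene Csn3 had signals of 357, 339, 678, 1211 and 1031 in the large hyperplasias and 1036, 1978, 1255 and 629 in control tissue.

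Genes of the cell cycle rose together. Of 36 mitosis genes that passed the filter, 34 were higher and 1 lower, and of 33 DNA replication genes 30 were higher and 0 lower. Of the mitosis genes 16 were at background in every control sample. They passed the filter through the large hyperplasias alone and could hardly be called lower. The median log2 difference of the mitosis genes was 1.61, or 1.21 with the bounds. Mki67, the gene of the proliferation marker Ki67, had signals of 391, 414, 417, 591 and 450.2 in the large hyperplasias and 64.2, 62.9, 74.3 and 60.04 in control tissue (log2 difference 2.51 ± 0.14, adjusted p = 3.31e-13). Top2a, which untangles chromosomes, had signals of 225, 295, 299, 433 and 342 in the large hyperplasias and 60.7, 20.6, 59.7 and 42.5 in control tissue (log2 difference 2.47 ± 0.21, adjusted p = 1.03e-09). Cdk1, the kinase that starts mitosis, had signals of 129, 132, 134, 210.0 and 187 in the large hyperplasias and 42.8, 27.3, 22.2 and 30.5 in control tissue (log2 difference 1.89 ± 0.19, adjusted p = 1.69e-08). Rrm2, which makes deoxynucleotides, had signals of 180.3, 212, 188, 271 and 213 in the large hyperplasias and 44.6, 19.1, 22.7 and 28.4 in control tissue (log2 difference 2.37 ± 0.20, adjusted p = 1.62e-09). In all 4 genes the groups did not overlap. The exceptions were Pttg1, the securin gene, which was lower (log2 difference -0.997 ± 0.17, adjusted p = 2.71e-05), and Foxm1, Cdc45, Orc6 and Orc1, which were not called and had log2 differences of 0.17, 0.15, -0.18 and -0.32. Small hyperplasias had 34 of 36 mitosis genes above control tissue as well, and large hyperplasias were higher than small ones in 2 of 36 mitosis genes, Mki67 (log2 difference 0.45 ± 0.13, adjusted p = 0.0255) and Nusap1 (0.38 ± 0.12, adjusted p = 0.0421). Of the DNA replication genes small hyperplasias had 28 of 31 above control tissue, and 1 was higher in large than in small ones. Over all genes 4.10% were higher in large than in small hyperplasias, and the counts of both lists lie near that share.

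Promoters of many mitosis genes hold a CHR element, with the letters TTTGAA, and a CCAAT box, through which cell cycle repressors and the factor NF-Y are known to act. Of 29 mitosis genes that were higher and had a promoter in the RefSeq table, 18 held both letters, CCAAT and TTTGAA, on either strand (62.1%), against 7.12% of 27025 promoters and 4.85% of 9462 promoters of tested genes. Of 26 DNA replication genes that were higher, 1 held both (3.85%). A match is a description of these letters, and binding was not measured. The promoters of 5 mitosis genes that rose are shown over the 150 bases before their starts, in GRCm38.p6, with both sets of letters in capitals (on the opposite strand they read ATTGG and TTCAAA).
Mki67 (chr7:135716380-135716529, minus strand): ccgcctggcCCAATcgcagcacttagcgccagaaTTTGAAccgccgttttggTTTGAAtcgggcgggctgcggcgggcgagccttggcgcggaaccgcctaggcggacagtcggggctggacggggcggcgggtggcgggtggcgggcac
Top2a (chr11:99024190-99024339, minus strand): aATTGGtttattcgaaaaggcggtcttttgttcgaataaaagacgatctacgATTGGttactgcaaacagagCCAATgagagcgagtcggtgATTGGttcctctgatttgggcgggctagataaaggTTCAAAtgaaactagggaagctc
Cdc20 (chr4:118437344-118437493, minus strand): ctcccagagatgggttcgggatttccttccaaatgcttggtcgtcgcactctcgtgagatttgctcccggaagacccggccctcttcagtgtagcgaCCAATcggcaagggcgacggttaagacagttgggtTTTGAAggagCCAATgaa
Ube2c (chr2:164769779-164769928, plus strand): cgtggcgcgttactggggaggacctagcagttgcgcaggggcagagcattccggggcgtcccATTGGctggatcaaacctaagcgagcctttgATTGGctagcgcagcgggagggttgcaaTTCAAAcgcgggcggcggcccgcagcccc
Cdk1 (chr10:69352913-69353062, minus strand): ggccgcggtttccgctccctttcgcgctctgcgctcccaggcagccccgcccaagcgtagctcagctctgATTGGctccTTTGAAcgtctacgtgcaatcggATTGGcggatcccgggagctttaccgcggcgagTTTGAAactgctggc

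Inhibitors of the cell cycle rose beside the genes that drive it. Of 19 cell cycle inhibitors and p53 targets that passed the filter, 10 were higher and 2 lower. Cdkn1a, the gene of p21, had signals of 453, 470.5, 491, 452 and 418 in the large hyperplasias and 286, 217, 149 and 117 in control tissue (log2 difference 1.25 ± 0.23, adjusted p = 8.08e-05), and Cdkn2b, the gene of p15, of 153, 213, 188, 177 and 169 in the large hyperplasias and 59.6, 84.4, 74.2 and 62.9 in control tissue (log2 difference 1.18 ± 0.23, adjusted p = 1.90e-04). Trp53inp1, a p53 target, had a log2 difference of 1.37. The lower ones were Cdkn2c, the gene of p18 (log2 difference -1.41 ± 0.23, adjusted p = 2.77e-05), and Phlda3, a p53 target that restrains Akt (log2 difference -1.14 ± 0.12, adjusted p = 4.73e-08).

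Most genes of growth differed by small amounts. Of 14 members of the Myc, Max and Mxd network 5 were higher and 0 lower, against 26.8% of all genes, and 2 were higher with the arrays centred. Mycn, the member active in the hair matrix and in embryonic epithelia, had signals of 262, 283, 205, 174 and 126 in the large hyperplasias and 17.2, 2.98, 18.0 and 4.88 in control tissue and was at least 6.72-fold higher with an adjusted p of 2.65e-09. Myc had signals of 219, 191, 188, 214 and 269.9 in the large hyperplasias and 144, 125, 138 and 144 in control tissue (log2 difference 0.59 ± 0.21, adjusted p = 0.0238) and was not called with the arrays centred, without control replicate 2 or without large hyperplasia replicate 5. Mxd1, an antagonist of Myc that marks differentiating cells, had a log2 difference of 0.97. Of 33 nucleolar genes of ribosome assembly 19 were higher and 3 lower, with a median log2 difference of 0.42. Nop56 and Nop58, which build the methylation machinery of ribosomal RNA, had log2 differences of 0.81 and 0.79, and Npm1, the gene of nucleophosmin, of 0.79. The lower ones were Nop10, Rcl1 and Utp4 (-0.50, -0.40 and -0.27). With a ratio of the group medians of at least 2 also required, 1 of the 19 remained by count. Of 25 translation and chaperonin genes 14 were higher and 3 lower, 9 were higher with the arrays centred, and 0 had a ratio of at least 2. Eif4ebp1, which blocks translation, was lower (log2 difference -1.40 ± 0.15, adjusted p = 4.02e-08). The letters CACGTG, bound by Myc and Max, were in 4 of 16 promoters of nucleolar genes that rose (25%), against 7.24% of all promoters and 10.4% of those of tested genes.

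Of 23 polyamine and one-carbon genes 9 were higher and 4 lower, against 26.8% and 22.9% of all genes, and 5 were higher with the arrays centred. Phgdh, which opens serine synthesis, had signals of 412, 352, 287, 456 and 339 in the large hyperplasias and 1216, 1358, 1198 and 1175 in control tissue (log2 difference -1.72 ± 0.17, adjusted p = 1.44e-08). Asns, which makes asparagine, had signals of 272, 252, 248, 258 and 248.9 in the large hyperplasias and 799, 658, 756 and 694 in control tissue (log2 difference -1.45 ± 0.10, adjusted p = 1.97e-11). Psat1, of serine synthesis, and Gart, of purine synthesis, were also lower, with log2 differences of -0.87 and -0.27. Shmt1, which turns serine into glycine, was higher (0.91), and 3 of its 4 probe sets were. The polyamine genes Sat1 and Odc1 were higher (1.10 and 0.63), and Odc1 was not called with the arrays centred, without large hyperplasia replicate 3, or as the mean of its probe sets.

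Genes of the respiratory chain were lower in the large hyperplasias. Of 26 that passed the filter 23 were lower and 0 higher, with a median log2 difference of -0.66, where 22.9% of all genes were lower. Sdha, a subunit of succinate dehydrogenase, had signals of 1148, 1113, 1246, 1394 and 1301 in the large hyperplasias and 2549, 2293, 2478 and 2238 in control tissue (log2 difference -0.94 ± 0.11, adjusted p = 3.14e-07). Cyc1, of complex III, had signals of 807, 776, 1039, 1280.5 and 1124 in the large hyperplasias and 2104, 1654, 2529 and 1559.8 in control tissue (log2 difference -0.95 ± 0.16, adjusted p = 3.03e-05), and Cox5b, of complex IV, of 2805, 2248, 2822, 2842 and 2904 in the large hyperplasias and 7353, 4425, 5557 and 3702 in control tissue (log2 difference -0.90 ± 0.15, adjusted p = 1.91e-05). For Sdha, Cyc1 and Cox5b the groups did not overlap. Cox7a1, the form of muscle and brown fat, differed most, and was lost in 11 alternatives (log2 difference -1.21 ± 0.45, adjusted p = 0.0300). The differences were small, and with a ratio of group medians of at least 2 also required, 1 gene was lower. Against small hyperplasias, too, 16 of 26 were lower and 0 higher, where 5.55% of all genes were lower, and small hyperplasias had 11 of 26 below control tissue and 1 above. The log2 differences from small hyperplasias were -0.53 ± 0.11, adjusted p = 0.00346, for Sdha and -0.59 ± 0.15, adjusted p = 0.0152, for Cyc1. Of 47 genes of the large subunit of the mitochondrial ribosome, a family read after the values were seen, 23 were lower and 1 higher, with a median of -0.25. Of these genes 12 were lower by the methods' t-test, 17 with 1 array left out (the lowest such count), and 0 with a ratio of group medians of at least 2 also required. Of the cytosolic large subunit 0 of 23 genes were lower and 9 were higher. Brown fat cells are rich in mitochondria, and adipocyte genes were lower as well. The mean log2 signal of the 21 adipocyte genes relative to the control mean was -1.89 to -1.23 in large hyperplasias, -0.88 to -0.60 in small hyperplasias and -0.20 to 0.22 in control tissue. For the 26 respiratory chain genes it was -0.83 to -0.44, -0.47 to 0.03 and -0.20 to 0.22 in the same order. In tumors it was -5.28 to -3.39 for the adipocyte genes and -0.97 to -0.65 for the respiratory chain genes. Ucp1, which makes heat in brown fat, had signals of 27.4, 586, 21.2, 121 and 29.0 in the large hyperplasias and 3107, 75.3, 2488 and 55.6 in control tissue and of 749, 1075, 2419, 1917 and 2514 in small hyperplasias (log2 difference -4.13 ± 0.88, adjusted p = 0.00514 against the latter). Control samples fell into a high and a low pair for Ucp1, and the groups overlapped. Ucp1 was called lower than in control tissue (log2 difference -2.40 ± 0.93, adjusted p = 0.0375), a call that was lost in 13 alternatives, among them those without control replicate 1 or 3. The part of fat cells in the mitochondrial result was not tested.

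**Figure D5:**
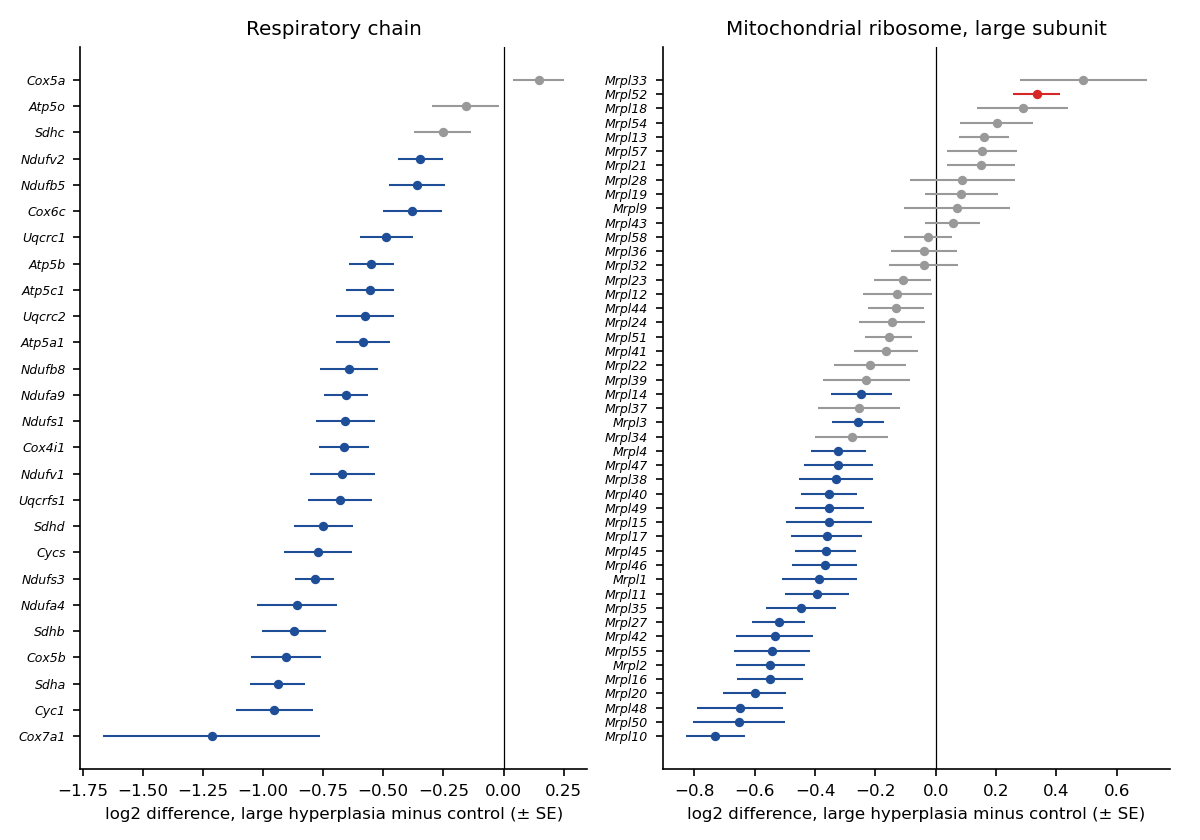
Log2 differences of large hyperplasias minus control tissue, ± SE, for 26 genes of the respiratory chain and 47 genes of the large subunit of the mitochondrial ribosome, in blue where lower, in red where higher and in grey where not called. In either panel 23 genes were lower, and 1 gene of the mitochondrial ribosome was higher, where the methods' t-test called 12 genes of the mitochondrial ribosome lower.

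Of 21 glycolysis and hypoxia genes 4 were higher and 5 lower, against 26.8% and 22.9% of all genes, so that the counts do not exceed the background. Car12, a carbonic anhydrase, was at least 8.65-fold higher with an adjusted p of 4.23e-10, and the glucose transporter Slc2a1 had signals of 433, 469.6, 416, 279.7 and 369 in the large hyperplasias and 184, 210.1, 173 and 187 in control tissue (log2 difference 0.99 ± 0.24, adjusted p = 0.00183). Egln3 and Pdk1, both induced by hypoxia, were higher too (2.29 and 0.61). Bnip3, a hypoxia target that clears mitochondria, fell from 4109, 3021, 3480.5 and 3489 to 949, 748, 563, 931 and 869.8 (log2 difference -2.11 ± 0.30, adjusted p = 3.17e-06), and the vessel growth factor Vegfa was lower (log2 difference -1.04 ± 0.24, adjusted p = 7.86e-04), as were the enzymes Aldoa, Tpi1 and Ldha (-0.76, -0.61 and -0.53). Of 20 cholesterol synthesis genes 9 were higher, with Idi1 at 1.02, Dhcr7 at 0.98 and Cyp51 at 0.94, and 1 was lower, Sc5d (log2 difference -1.34 ± 0.32, adjusted p = 0.00143).

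Stromal genes moved both ways. Of 24 collagen and matrix genes 8 were higher and 2 lower, against 26.8% and 22.9% of all genes. Vcan, the proteoglycan gene of the dermal papilla, had signals of 378, 301, 375, 381 and 393 in the large hyperplasias and 66.9, 40.4, 43.0 and 42.8 in control tissue (log2 difference 2.58 ± 0.24, adjusted p = 6.93e-09), and Tnc, the gene of tenascin C, of 353, 334, 348, 223 and 215 in the large hyperplasias and 106, 27.0, 37.1 and 45.1 in control tissue (log2 difference 2.24 ± 0.42, adjusted p = 1.09e-04). The brightest probe set of the fibrillar collagen gene Col3a1 was not called (log2 difference 0.00), and a dimmer one was called higher (1.05, adjusted p = 0.0368). Col1a1 (1.05) was not called without control replicate 3 or as the mean of its probe sets. Sparc and Thbs2 were lower (-0.78 and -1.46). The dimmer probe sets of Thbs2 were not called (-0.12 and -0.47), nor was the mean over its probe sets. Of 22 genes of matrix proteases and their inhibitors 9 were higher and 4 lower. Mmp12, the elastase of macrophages, had signals of 2661, 2547, 3813, 2137 and 1618 in the large hyperplasias and 159.9, 17.1, 41.0 and 43.2 in control tissue (log2 difference 5.21 ± 0.59, adjusted p = 1.26e-07). Mmp13 was at least 7.02-fold higher with an adjusted p of 5.48e-05 and Mmp7 at least 3.29-fold higher with an adjusted p of 0.00274, and Mmp14, which activates other proteases at the cell surface, had signals of 639, 714, 607, 587 and 709 in the large hyperplasias and 179, 225, 295 and 339 in control tissue (log2 difference 1.31 ± 0.20, adjusted p = 1.11e-05). The inhibitor genes parted, with Timp1 higher (log2 difference 2.34 ± 0.34, adjusted p = 3.88e-06) and Timp2, Timp3 and Timp4 lower (-0.43, -1.69 and -2.38).

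Of 8 EGF family genes that passed the filter 6 were higher, among them the ligands Tgfa (log2 difference 1.44 ± 0.23, adjusted p = 1.63e-05) and Hbegf (log2 difference 1.36 ± 0.39, adjusted p = 0.00581), and the ligand Btc was lower (log2 difference -0.60 ± 0.19, adjusted p = 0.0125). The receptor gene Egfr (0.66) was not called as the mean of its probe sets. Of 15 Notch pathway genes 5 were higher and 5 lower, and of 16 Bmp and Id genes 6 were higher and 3 lower. Of 18 Igf and imprinted genes 1 was higher and 5 were lower. Over all genes 26.8% were higher and 22.9% lower. The higher Notch genes included the ligands Jag2 and Jag1 and the feedback target Nrarp (0.86, 0.62 and 1.17), while the vessel genes Notch4 and Dll4 were lower (-1.30 and -0.83), with Mfng, Hey1 and Notch3. The dimmer probe sets of Jag1 were not called (0.06 and 0.24), nor was the mean over its probe sets. Jag2 and Notch1 were also higher than in small hyperplasias (log2 differences 0.62 ± 0.16, adjusted p = 0.0172, and 0.55 ± 0.13, adjusted p = 0.0110). Without control replicate 4, 3 of the Bmp and Id genes were higher. Bmp7 was at least 4.03-fold higher, Bmp2 had signals of 148, 159, 190.0, 115 and 171 in the large hyperplasias and 39.4, 43.6, 36.7 and 50.6 in control tissue (log2 difference 1.55 ± 0.27, adjusted p = 5.98e-05), and Id2, a helix-loop-helix inhibitor, of 513, 735, 767, 675 and 726 in the large hyperplasias and 135, 188, 275 and 198 in control tissue (log2 difference 1.73 ± 0.19, adjusted p = 1.12e-07). Bmp6, Smad6 and Chrd were lower (-1.47, -0.78 and -0.73). Of 6 Fgf ligands 4 were lower, among them Fgf10, the ligand of the fat pad that guides mammary buds (at least 1.37-fold lower with an adjusted p of 1.50e-05), and Fgf13 (log2 difference -2.05 ± 0.28, adjusted p = 2.07e-06). The 1 Igf gene that was higher was Igfbp2 (at least 6.57-fold higher with an adjusted p of 1.39e-06), and without large hyperplasia replicate 2, 3 of that list were lower. Nnat, an imprinted gene active in fat, was among the 15 largest falls, with signals of 979.9, 808, 285, 334 and 190.1 in the large hyperplasias and 5088, 3748, 3275 and 4539 in control tissue (log2 difference -3.20 ± 0.44, adjusted p = 1.87e-06).

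Genes of the fat pad, its vessels and contractile cells made up many of the largest falls. Of 21 adipocyte genes 14 were lower and 0 higher, and 9 were lower without an offset. Lep, the gene of the fat hormone leptin, had signals of 766, 293, 75.4, 207 and 77.4 in the large hyperplasias and 2019.8, 1793, 1649 and 2184 in control tissue (log2 difference -3.16 ± 0.44, adjusted p = 2.60e-06). Cidec, of the lipid droplet, had signals of 961, 666, 454, 1570.2 and 1360.2 in the large hyperplasias and 5607, 5705, 5431 and 5231 in control tissue (log2 difference -2.57 ± 0.55, adjusted p = 4.64e-04), and Pparg, the master factor of fat cells, of 168, 201, 202, 266 and 237 in the large hyperplasias and 1116, 844, 1052 and 878 in control tissue (log2 difference -2.10 ± 0.26, adjusted p = 4.35e-07). The control samples lay above every large hyperplasia in the 3 genes. Adipoq and Fabp4, which fat cells express at high levels, were not called by their brightest probe sets. Adipoq had signals of 4947, 4301, 5107, 5241 and 5238 in the large hyperplasias and 12493, 11844, 11329 and 12485 in control tissue (adjusted p = 0.172). Fabp4 had signals of 9582, 8165, 9043, 8688 and 8988 in the large hyperplasias and 13506, 11839.9, 12727 and 13479 in control tissue (adjusted p = 0.393). For neither gene did the groups overlap, and both were called lower without tumors in the fit. Of the 4 probe sets of Fabp4, 2 were called lower (log2 differences -2.05 and -2.14), and so was the mean of the 4. Small hyperplasias had 9 of 21 adipocyte genes below control tissue, and 6 were lower in large than in small hyperplasias. Other genes with a fall among the 15 largest were Sncg, Npr3, Ephx2, Slc7a10, Cyp2e1 and Ces1f, which fat tissue expresses, with log2 differences of -2.77, -2.99, -2.93, -2.60, -2.60 and -2.62. Cyp2e1 was not called without large hyperplasia replicate 1. Tmem45b, Apol6, Smim38 and Prelp, a matrix protein gene, were also lower, with log2 differences of -3.01, -3.00, -2.95 and -2.64.

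Of 22 endothelial genes 18 were lower and 0 higher. Small hyperplasias had 15 of 22 below control tissue, and 6 were lower in large than in small hyperplasias. Kdr, the main receptor of Vegfa, had signals of 74.6, 44.1, 77.7, 75.5 and 77.4 in the large hyperplasias and 286, 226, 261 and 333 in control tissue (log2 difference -1.78 ± 0.21, adjusted p = 2.71e-07). Pecam1, which joins endothelial cells, had signals of 148, 119, 136, 183 and 161 in the large hyperplasias and 311, 216, 253 and 223 in control tissue (log2 difference -0.69 ± 0.21, adjusted p = 0.0103). Gpihbp1, which anchors lipoprotein lipase in the capillaries of fat and muscle, had signals of 379.5, 196, 197, 353 and 342 in the large hyperplasias and 1389.6, 1211, 1277 and 1141 in control tissue (log2 difference -2.09 ± 0.27, adjusted p = 7.57e-07). Plvap, of fenestrated capillaries, was not called (-0.06), nor was the lymphatic gene Lyve1 (-0.63). Of 17 smooth muscle genes 11 were lower and 1 higher, small hyperplasias had 6 of 16 below control tissue, and 2 were lower in large than in small ones. The actin gene Acta2 had signals of 1584, 1087, 1125, 2009.9 and 1810.2 in the large hyperplasias and 3129, 3210.4, 3279 and 4075 in control tissue (log2 difference -1.19 ± 0.19, adjusted p = 1.79e-05), and Oxtr, the receptor of oxytocin, of 172, 125, 145, 231 and 233 in the large hyperplasias and 454, 498, 538 and 658 in control tissue (log2 difference -1.51 ± 0.45, adjusted p = 0.00844), while the regulator Myocd was at least 1.06-fold higher with an adjusted p of 0.00141. Acta1, a skeletal muscle actin, fell most of all genes that met the rule for naming, from 516, 1417, 599.6 and 1822 to 84.8, 38.5, 36.9, 182 and 134 (log2 difference -3.31 ± 0.91, adjusted p = 0.00431). Of 17 skeletal muscle genes on the array 3 passed the filter, and 2 were lower, Acta1 and Myl1 (-2.62). Among 7 genes of nerve and Schwann cells 1 was higher, Ngfr, and 1 lower, Pmp22.

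Immune genes rose. Of 24 macrophage genes 21 were higher and 0 lower, and the mean log2 signal of the list, relative to the control mean, was 1.14 to 1.52 in large hyperplasias and -0.33 to 0.70 in control tissue. Small hyperplasias had 15 of 24 above control tissue, and 5 were higher in large than in small hyperplasias. Gpnmb, of lipid-laden macrophages, had signals of 1353, 1812, 2947, 1284 and 987 in the large hyperplasias and 174, 93.2, 74.3 and 84.8 in control tissue (log2 difference 3.75 ± 0.56, adjusted p = 6.90e-06), Trem2, a lipid receptor of the same cells, was at least 3.48-fold higher with an adjusted p of 2.24e-06, and Ctss, a protease of antigen processing, had signals of 4348, 3541, 4413, 3494 and 3409 in the large hyperplasias and 2255, 783, 824 and 862 in control tissue (log2 difference 1.83 ± 0.24, adjusted p = 8.08e-07). Gpnmb and Trem2 were also higher than in small hyperplasias (log2 differences 2.17 ± 0.53, adjusted p = 0.0118, and 1.27 ± 0.32, adjusted p = 0.0148). Cd163 and Retnla, of resident macrophages, were not called (-0.80 and -0.23), and the brightest probe set of Csf1r (0.43) was lost in 14 alternatives. All 3 probe sets of Csf1r were called higher, the dimmer ones with log2 differences of 0.80 and 0.86. Among neutrophil and mast cell genes 7 of 14 were higher and 0 lower. S100a8 had signals of 3052, 4402, 2101, 1316 and 1949.5 in the large hyperplasias and 141, 32.7, 10.4 and 32.5 in control tissue (log2 difference 5.41 ± 0.40, adjusted p = 1.32e-10), a gene that neutrophils and stressed keratinocytes both express, and the granule gene Ngp was at least 6.26-fold higher with an adjusted p of 0.00241. Ltf and Mmp9 of the same list were not called (-0.39 and 0.38), and Cxcr2, Elane and Mpo were under the filter. The cell source of these signals was not tested. The mast cell genes Cpa3 and Mcpt4 were not called.

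Many lymphocyte genes differed between large and small hyperplasias, which also differ in the H2 signal. Of 13 T cell genes that passed the filter 10 were higher than in control tissue, and 8 of 12 were higher than in small hyperplasias, while small hyperplasias had 0 of 9 above control tissue. Cd3g, of the T cell receptor complex, had signals of 118, 110.3, 110.4, 96.1 and 60.6 in the large hyperplasias and 11.2, 14.2, 36.3 and 18.9 in control tissue and of 33.4, 53.04, 32.7, 44.8 and 52.7 in small hyperplasias (log2 difference 0.95 ± 0.29, adjusted p = 0.0402 against the latter). Il7r, the receptor of a survival signal, had signals of 566, 431, 532, 427 and 338 in the large hyperplasias and 94.6, 100.2, 62.3 and 81.2 in control tissue (log2 difference 2.23 ± 0.39, adjusted p = 4.45e-05), and of 129.7, 113, 101, 205 and 129.6 in small hyperplasias (log2 difference 1.66 ± 0.36, adjusted p = 0.00627). Of 14 B cell and plasma cell genes 12 were higher than in control tissue and 10 higher than in small hyperplasias, which had 1 of 10 above control tissue. Cd79a, of the B cell receptor, had signals of 127, 174, 88.8, 80.3 and 32.8 in the large hyperplasias and 7.18, 52.2, 11.4 and 12.2 in control tissue (log2 difference 1.67 ± 0.36, adjusted p = 5.34e-04), and of 10.1, 55.2, 15.99, 26.1 and 37.0 in small hyperplasias (log2 difference 1.33 ± 0.34, adjusted p = 0.0157). Jchain, which joins secreted antibodies, had signals of 5653, 4023, 4249.8, 2844 and 3053 in the large hyperplasias and 262, 851, 726 and 361 in control tissue (log2 difference 2.92 ± 0.68, adjusted p = 0.00103), and of 209, 2328, 641, 969 and 575 in small hyperplasias (log2 difference 2.41 ± 0.64, adjusted p = 0.0188). Of Cd79a the groups overlapped. For Jchain every large hyperplasia lay above every control sample. Of 8 variable segments of the immunoglobulin κ chain 7 were higher than in control tissue, 6 were higher than in small hyperplasias and all 8 were lower in tumors. Over all genes 4.10% were higher than in small hyperplasias and 31.9% were lower in tumors. Of these segments 4 passed the filter of small hyperplasias against control tissue. The T cell, B cell and κ chain members had passed the filter of large hyperplasias against control tissue. Such a choice favours higher values in large hyperplasias, so that the counts against small hyperplasias and tumors are no test. The brightest Ighm probe set was not called (log2 difference 0.58), and 6 of 8 of its probe sets that passed the filter were higher. Of genes of lymph nodes, Madcam1, Cr2 and Cxcr5 were under the filter and were not tested. Madcam1 was at 10.9 to 23.5 in the large hyperplasias and 0.757 to 27.9 in control tissue. Cr2 and Cxcr5 had higher means in the large hyperplasias, all under the background limit of 30. The mean signal of Cr2 was 25.5 in the large hyperplasias and 8.21 in control tissue, and the groups overlapped. For Cxcr5 the means were 24.96 and 14.8 in the same order. Glycam1, made by lymph node venules and by milk-forming cells, had signals of 75.5, 187, 79.9, 115 and 141 in the large hyperplasias and 1.78, 0.943, 1.87 and 1.32 in control tissue, which did not overlap. It was not called (adjusted p = 0.0570) and was called higher without tumors in the fit. The part of a lymph node in the samples was not tested.

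Of 17 MHC class II and dendritic cell genes 12 were higher and 0 lower, small hyperplasias had 9 of 15 above control tissue, and 4 were higher in large than in small ones. H2-Ab1, a class II chain, had signals of 1928, 1879, 2209, 2338 and 2371 in the large hyperplasias and 878, 884, 1007 and 762 in control tissue (log2 difference 1.27 ± 0.20, adjusted p = 1.46e-05), Itgax, of dendritic cells, of 426, 445, 662, 358 and 315 in the large hyperplasias and 94.2, 56.5, 71.6 and 70.3 in control tissue (log2 difference 2.33 ± 0.23, adjusted p = 1.25e-08), and the homing receptor Ccr7 was at least 2.75-fold higher with an adjusted p of 8.92e-08. Several listed genes belong to the H2 complex, and for them, too, genetic background and lesion cannot be told apart. Probe sets of H2-Aa ranged from a log2 difference of 0.53, not called, to 1.83. Of 28 chemokine and interleukin genes 15 were higher and 3 lower. The neutrophil chemokine Cxcl2 had signals of 431, 565, 287, 111 and 208 in the large hyperplasias and 33.4, 0.372, 9.07 and 18.5 in control tissue (log2 difference 3.35 ± 0.62, adjusted p = 1.05e-04). Cxcl13, which gathers B cells, had signals of 412, 487, 464, 331 and 168 in the large hyperplasias and 44.7, 71.0, 64.9 and 61.9 in control tissue (log2 difference 2.27 ± 0.42, adjusted p = 8.62e-05), and was higher than in small hyperplasias (log2 difference 1.26 ± 0.39, adjusted p = 0.0421). Il33, an alarm cytokine of keratinocytes, had a log2 difference of 1.76. The lower ones were Cxcl15, Il34 and Ccl28 (-1.72, -0.68 and, for Ccl28, at least 1.03-fold lower). Of 24 interferon response genes 8 were higher and 1 lower, and 13 were higher without control replicate 1. Cxcl10 had signals of 188, 166, 154, 206 and 111 in the large hyperplasias and 75.8, 31.4, 20.7 and 2.97 in control tissue (log2 difference 2.09 ± 0.63, adjusted p = 0.00823), and Ifi27l2a was lower (log2 difference -1.60 ± 0.31, adjusted p = 1.82e-04).

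Genes that respond within minutes to growth factors or to handling of tissue changed as well. Of 23 immediate early and heat shock genes 12 were higher and 4 lower. Egr3 had signals of 394, 561, 361, 361 and 272 in the large hyperplasias and 18.99, 32.4, 27.3 and 20.1 in control tissue (log2 difference 3.29 ± 0.20, adjusted p = 3.10e-12) and Egr2 of 340.1, 326, 336, 159.9 and 228 in the large hyperplasias and 50.3, 64.3, 44.0 and 40.7 in control tissue (log2 difference 2.12 ± 0.23, adjusted p = 5.96e-08), while Fos, an early gene that handling can raise, was not called, with signals of 559, 406, 482, 353 and 397 in the large hyperplasias and 509.6, 345, 366 and 375 in control tissue. Dusp1, Klf2, Nr4a1 and Nr4a2 were lower (-0.98, -0.88, -0.60 and -0.47). The part of sample handling in these genes was not tested.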

How the data were processed

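RNA of mammary tissue was measured on Affymetrix mouse genome arrays of 45101 probe sets. The authors deposited MAS5 signal intensities, made per the labels with Affymetrix Expression Console (version not given in the sources used here). Each array was scaled to a trimmed mean of 100, leaving out 2% at either end, which was checked on the files. The 64 control probe sets were dropped. Of the other 45037, 34945 carry 1 gene symbol in the platform annotation, 932 several and 9160 none, and only probe sets with 1 symbol were named by gene.

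Values were log2 of the signal plus 16. Probe sets whose higher group median was at least 30 were tested with limma 3.58.1 in R 4.3.3, with 4 control, 5 small hyperplasia, 5 large hyperplasia and 11 tumor arrays in 1 model with a trended variance and with Benjamini-Hochberg adjustment over all probe sets tested. A gene stands for the probe set with the highest mean over the 25 tissue arrays, and a call needs an adjusted p under 0.05. The script was tested on simulated data. The number of arrays limits the precision. Members and lists were chosen with earlier results of these data known, and the gene families, the H2 rule and the members named for the comparison with small hyperplasias were chosen after the values were seen. Named genes are the 15 largest rises and falls among called genes whose higher median was at least 100 and whose groups did not overlap, up to 5 called members of each list with those called against it, defining members not called, and genes the study's text turns on. Promoters are those of RefSeq on GRCm38.p6. No pair of arrays held identical values. Replicate numbers did not pair the samples, since deviations of arrays with the same number correlated at 0.106, -0.042, 0.014 and -0.085. Alternatives were another filter, offset, floor, normalization, set of groups, weighting, probe set summary and test, a replicate block, and leaving out each array.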

Additional observations from a re-analysis of the deposited data

Results flagged for a closer look

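Of 78 mean list signals over the 4 control or the 5 large hyperplasia arrays, 7 had 1 array beyond Dixon's 95% limit, a limit that chance passes in about 1 of 20 groups. Values are mean log2 signals relative to the control mean. Control replicate 1 was the highest control sample by this limit in 4 lists. It lay at 0.70 for the macrophage genes, at 0.42 for the chemokine and interleukin genes, at 0.19 for the keratins and at 0.19 for the mitosis genes. Among large hyperplasias, replicate 4 was the lowest by this limit for the Wnt feedback and target genes, at 0.86, and for the Bmp and Id genes, at 0.29. Replicate 1 was the highest for the erythrocyte list, at -0.91, which holds the single gene Alas2. Alas2 was lower than in control tissue, and was not called without control replicate 1 or 2.

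In a sample outside the comparison, tumor replicate 4 had an H2-Ea signal of 1382, above the level in every control sample, while the next highest tumor was at 6.89.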

How the results depend on the processing

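Leaving out 1 array at a time gave 5440 to 5931 probe sets higher and 4407 to 4701 lower than in control tissue, against 6155 and 4822. A ratio of group medians of at least 2 as a further condition left 2390 higher and 1624 lower. Against small hyperplasias, with 1175 higher and 1084 lower, array weights with a robust fit gave 2319 and 1689, and the methods' t-test after Benjamini-Hochberg gave 220 and 198. Of 316 genes followed, 275 were called, and 236 of them were called in the same direction in all 22 alternatives that apply to a gene. The mean over probe sets turned the direction of Dst (log2 difference 0.36), H2-D1 (2.55) and Mitf (0.35), whose probe sets disagree. Scaling moved the share of calls that were higher from 56.07% to 43.67% with arrays centred on the median and to 49.6% with quantile normalization. The cause of each other change was not tested.

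With the replicate number as a block, 6298 probe sets were higher and 4796 lower than in control tissue, 1308 and 1083 differed from small hyperplasias, and 3943 were higher and 5656 lower in tumors, although the numbers did not pair the samples.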

Other observations

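Gene families read after the values were seen held further differences. Of 10 S100a genes that passed the filter, which encode small calcium-binding proteins, 7 were higher and 2 lower. S100a9, the partner of S100a8, had signals of 2893, 3172, 1293, 679.6 and 1219 in the large hyperplasias and 114, 10.1, 5.17 and 24.9 in control tissue (log2 difference 5.27 ± 0.45, adjusted p = 1.30e-09). S100a3, of the hair cuticle, and S100a14, of epithelia, were also higher (log2 differences 3.45 and 4.23), while S100a1 and S100a13 were lower (-0.62 and -0.58). Of 12 claudins, which seal tight junctions, 1 was higher and 4 were lower. Cldn1, of the epidermal barrier, had signals of 677, 612, 551, 448 and 425 in the large hyperplasias and 29.1, 40.5, 41.2 and 25.2 in control tissue (log2 difference 3.47 ± 0.19, adjusted p = 6.76e-13), and Cldn5, of vessels, had signals of 138, 83.8, 117, 115 and 86.2 in the large hyperplasias and 427, 357, 234 and 355 in control tissue (log2 difference -1.53 ± 0.25, adjusted p = 2.37e-05). Of 8 melanocyte genes 2 passed the filter, and Dct, a pigment enzyme of hair and skin, was at least 1.82-fold higher.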
